A study of Mus musculus with 6 samples.

Results

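The genes described here are 10 core circadian clock and PAR bZIP output genes. They are Arntl, Clock, Per1, Per2, Per3, Cry1, Cry2, Dbp, Tef and Hlf, taken by gene name from the 55487 genes in the count files. This choice was made with earlier results of these data known. Messenger RNA was sequenced from purified colonic crypt cells of C57BL/6 mice aged 4 weeks. Of the 6 libraries, 3 came from M14(f/f);Villin-Cre mice (mutant 1 to 3) and 3 from M14(f/f) mice without Cre (control 1 to 3), so both groups carry loxP-flanked M14 alleles. M14 is read here as Mettl14, a subunit of the complex that writes N6-methyladenosine on RNA, and the Villin promoter restricts Cre to intestinal epithelial cells. Stromal or immune cells left in a preparation would keep the gene. Cre was present in the mutants alone, so effects of Cre and of losing Mettl14 cannot be told apart. The labels used here give no time of day at which the crypts were taken, so each value is a level at an unstated time in each mouse. The design speaks of 3 pairs of mice but not of which libraries form a pair, and whether the triplicates are those mice or repeat RNA-seq is not said, so p-values measure the spread between these libraries.

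The circadian clock is a feedback loop of transcription. The activators ARNTL (also called BMAL1) and CLOCK bind E-box sequences together and switch on the Per and Cry genes, whose proteins return to the nucleus and block them. A second loop runs through the nuclear receptors REV-ERB and ROR, which repress and activate Arntl at ROR elements. The PAR bZIP factors DBP, TEF and HLF are outputs of the E-box arm that activate genes through D-boxes, where NFIL3 represses. In peripheral mouse tissues Dbp, Nr1d1 and Per3 peak at about the opposite time of day to Arntl, Npas2 and Nfil3. In the gut the clock is known for timing cell division, nutrient uptake and barrier functions.

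Library totals ran from 24181631 to 34842591 counts in mutants and from 32165546 to 35183636 counts in controls. Mettl14 held 14.0, 13.8 and 10.5 CPM (counts-per-million after TMM scaling of libraries) in mutants, against 26.2, 20.9 and 22.0 CPM in controls, so its log2 fold change was -0.85 with SE 0.13 (adjusted p = 6.22e-04 by edgeR). The transcript CT010467.1 took 12.9%, 7.44% and 5.16% of counts in mutants, against 7.76% to 8.90% in controls, and mutant 1 stood highest. Sex-linked genes set mutant 1 and mutant 2 apart. Xist, the RNA of the inactive X chromosome, stood at 652, 53.1 and 1.5 CPM in mutants 1, 2 and 3, against 1.28 to 1.77 CPM in controls. The summed level of 4 Y-linked genes was 2.55, 176 and 198 CPM in the mutants, against 236 to 262 CPM in controls. Mutant 1 thus lacked nearly all of the Y-linked signal that every control held, and mutant 2 held both signals. The labels used here give no sex. By these signals the groups were not matched for sex, so sex and genotype cannot be fully told apart. Results are therefore also given without mutants 1 and 2. All 13 markers of colon epithelium passed the filter on low counts. Epcam stood at 1408 to 1751 CPM in mutants, against 2083 to 2285 CPM in controls. Cdh1 went the other way, at 1590 to 1749 CPM in mutants, against 1392 to 1443 CPM in controls. By the test given below, 7 of the 13 were lower, 1 was higher (Cdh1) and 5 were not called, beside 46.3% of all tested genes called.

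Most of the clock genes were lower in mutant crypts. Of the 10 members, all of which passed the filter on low counts, 7 fell (Clock, Per1, Per2, Per3, Cry2, Dbp and Tef), 1 rose (Cry1) and 2 did not pass the test (Arntl and Hlf). The test was edgeR's quasi-likelihood F test with Benjamini-Hochberg adjustment over 18539 genes at a threshold of 0.05, and it called 46.3% of all tested genes, 22.8% lower and 23.5% higher. For 8 members, 7 lower and 1 higher, all mutants lay on the same side of all controls. This was so for 56.9% of all tested genes, 28.2% lower and 28.7% higher. The median absolute log2 fold change was 0.52 over the members and 0.41 over all tested genes. The median signed value was -0.52 over the members and 0.01 over all tested genes. The members' changes were thus moderate in size for these libraries, and most had the same sign. Without mutant 1 the test called 8 members lower and 1 higher, and without mutant 2 it called 7 lower and 1 higher. With mutant 3 alone against the controls, 7 were called lower, and Cry1 had an adjusted p of 0.135. In bulk RNA fewer cells of a type and less RNA per cell cannot be told apart.

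**Figure D1:**
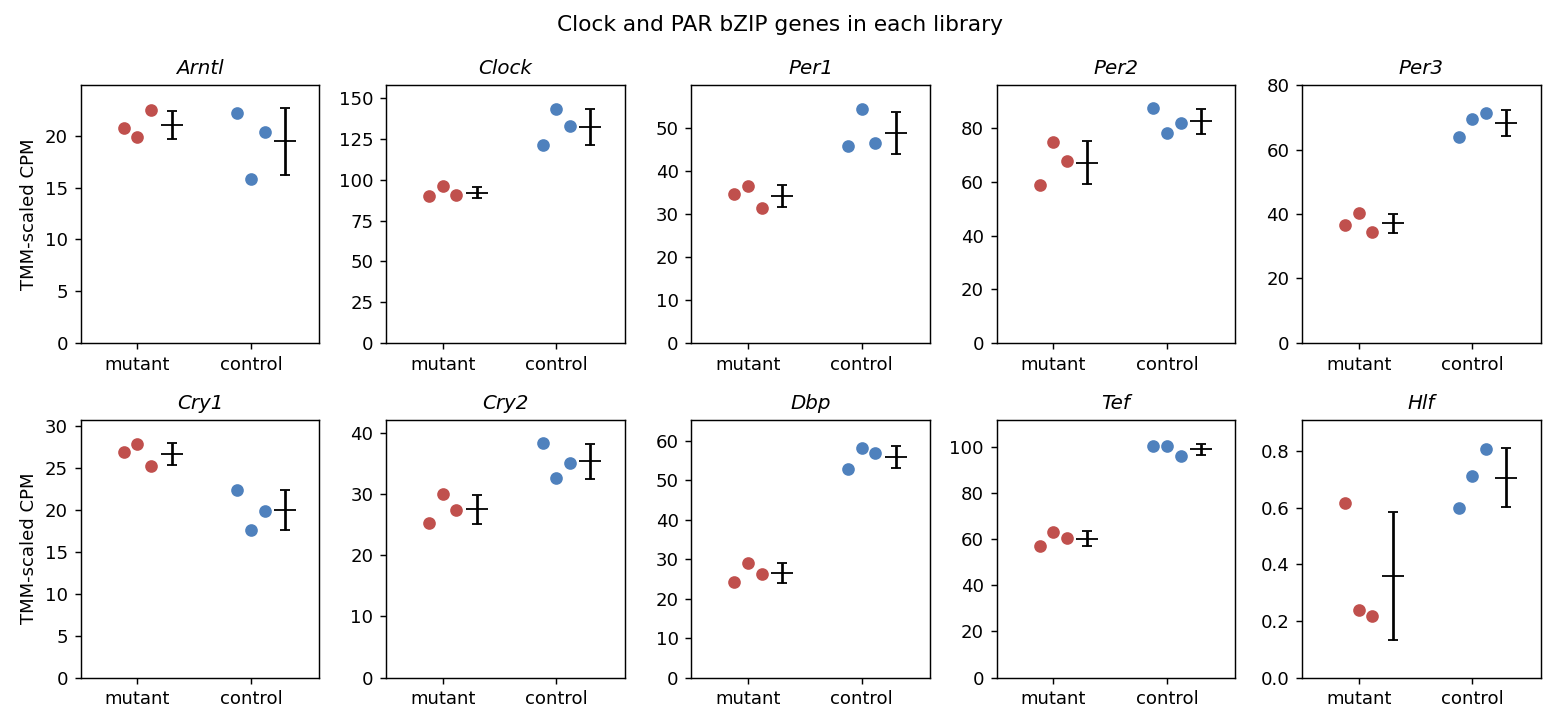
TMM-scaled CPM (vertical axis, from 0) of each gene in the 3 mutant libraries (red, left) and the 3 control libraries (blue, right), with the mean and SD of each group in black. Dbp, Tef and Per3 were separated by wide gaps, with all 3 mutants below all 3 controls, whereas the groups overlapped for Arntl and Hlf.

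The activator pair split. Clock (chr5:76209868-76304792, minus strand, GRCm38) encodes the partner of ARNTL, a bHLH-PAS factor with histone acetyltransferase activity. It held 90.0, 96.0 and 90.6 CPM in mutants, against 121, 144 and 133 CPM in controls. Every mutant lay below every control, and Clock fell with a log2 fold change of -0.52 (adjusted p = 5.53e-04 by edgeR, SE 0.080). Arntl (chr7:113207465-113314126, plus strand) encodes the activator without which the loop stops. It held 20.8, 19.9 and 22.5 CPM in mutants, against 22.2, 15.9 and 20.4 CPM in controls. The mutants lay within the range of controls except mutant 3, which was just above it. The log2 fold change of Arntl was 0.11 (adjusted p = 0.481 by edgeR, SE 0.12), and it was -0.03 without control 2, the lowest library.

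The close relatives of both activators were higher in mutants. Npas2, which can stand in for CLOCK as the partner of ARNTL, held 34.4, 33.9 and 37.2 CPM in mutants, against 20.5, 17.5 and 22.2 CPM in controls. Npas2 rose with a log2 fold change of 0.81 (adjusted p = 1.25e-04 by edgeR, SE 0.097). Arntl2, a paralog of Arntl, held 6.84, 9.24 and 11.8 CPM in mutants, against 1.74, 3.74 and 3.42 CPM in controls. It rose with a log2 fold change of 1.65 (adjusted p = 0.00124 by edgeR, SE 0.29). Thus Clock was lower while its substitute was higher, and neither group of libraries overlapped the other for either gene.

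The Arntl promoter is shown because its ROR elements are the point at which REV-ERB and ROR act on Arntl. Each sequence shown is the 300 bases around a RefSeq transcript start on GRCm38.p6, most of them upstream, read 5′ to 3′ on the gene's strand. Capitals mark matches to the ROR element, searched as AAA, N, TAGGT, N and A in a row on both strands. The window is that of the second of the listed starts (chr7:113207261-113207560, plus strand).
Arntl: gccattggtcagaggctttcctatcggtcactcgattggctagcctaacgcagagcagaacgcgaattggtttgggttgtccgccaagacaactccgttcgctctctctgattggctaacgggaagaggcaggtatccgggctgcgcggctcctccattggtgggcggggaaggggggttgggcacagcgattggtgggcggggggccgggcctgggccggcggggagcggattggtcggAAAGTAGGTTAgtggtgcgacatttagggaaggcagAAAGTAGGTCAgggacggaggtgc
The first match begins 10 bases before the start (position -10) and the second at position 27, counting the start as 1. Of 32851 promoter windows of this length in the RefSeq table, 0.174% held a match on either strand.

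All 3 Period genes, which encode the PER repressors that bind CRY and carry it to the activators, fell by different amounts. Per3 (chr4:151003652-151044665, minus strand) showed the largest fold change of them. It held 36.6, 40.3 and 34.6 CPM in mutants, against 63.9, 69.5 and 71.5 CPM in controls, and the highest mutant was far below the lowest control. Its log2 fold change was -0.88 (adjusted p = 2.60e-05 by edgeR, SE 0.081), and over 17 alternatives it ran from -1.01 to -0.81 with every call kept. Per1 (chr11:69095217-69109960, plus strand), a PER gene that also responds quickly to stimuli, held 34.6, 36.5 and 31.4 CPM in mutants, against 45.8, 54.4 and 46.4 CPM in controls. Again no mutant reached the controls, and Per1 fell with a log2 fold change of -0.52 (adjusted p = 0.00127 by edgeR, SE 0.091).

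Per2 (chr1:91415982-91459324, minus strand), the PER gene whose loss shortens and then abolishes rhythms in mice, held 58.9, 74.9 and 67.7 CPM in mutants, against 87.7, 78.3 and 82.1 CPM in controls. Mutant 2 lay close below control 2, so the gap was narrow, and mutant 1 was the lowest library. Per2 fell with a log2 fold change of -0.30 (adjusted p = 0.0251 by edgeR, SE 0.094). This call was the least stable of the members. It was lost without mutant 3 (adjusted p = 0.0586), without control 1 (0.0718) and without control 3 (0.0531), and with libraries scaled by their totals alone (0.123).

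The promoters of Per3 and Per1 are shown because between them they hold both kinds of element that the members' proteins use. Capitals mark the E-box CACGTG, bound by ARNTL with CLOCK or NPAS2, and the D-box TTATGNAA, bound by DBP, TEF, HLF and NFIL3. The windows are chr4:151044616-151044915 on the minus strand for Per3 and chr11:69098699-69098998 on the plus strand for the first listed start of Per1.
Per3: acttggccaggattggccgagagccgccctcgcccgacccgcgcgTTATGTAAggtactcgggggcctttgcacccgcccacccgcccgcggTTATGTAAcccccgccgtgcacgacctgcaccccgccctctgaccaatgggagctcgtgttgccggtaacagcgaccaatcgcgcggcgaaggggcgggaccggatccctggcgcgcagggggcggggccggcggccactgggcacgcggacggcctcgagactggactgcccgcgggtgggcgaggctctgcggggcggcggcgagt
Per1: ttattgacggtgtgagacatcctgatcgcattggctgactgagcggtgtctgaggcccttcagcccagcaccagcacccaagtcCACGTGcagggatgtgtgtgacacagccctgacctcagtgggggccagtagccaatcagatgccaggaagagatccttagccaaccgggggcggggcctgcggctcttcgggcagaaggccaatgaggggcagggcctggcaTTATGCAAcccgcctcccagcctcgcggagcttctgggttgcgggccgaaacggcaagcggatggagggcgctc
In Per3 the D-box letters stand at positions -205 and -158, and no CACGTG is in the window. In Per1 the E-box stands at -166 and the D-box at -24. Of all 32851 windows, 7.15% held the E-box and 3.38% the D-box. A match is a string of letters and no binding was measured.

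The cryptochromes moved in opposite directions. Both encode repressors that bind the ARNTL and CLOCK pair directly, CRY1 being the stronger repressor of them. Cry1 (chr10:85131700-85185064, minus strand) held 26.9, 27.8 and 25.3 CPM in mutants, against 22.4, 17.6 and 19.8 CPM in controls. It was the only member that rose, with every mutant above every control and a log2 fold change of 0.42 (adjusted p = 0.00685 by edgeR, SE 0.099). Cry2 (chr2:92403646-92434043, minus strand) held 25.2, 30.0 and 27.3 CPM in mutants, against 38.4, 32.7 and 35.0 CPM in controls. It fell with a log2 fold change of -0.36 (adjusted p = 0.00884 by edgeR, SE 0.091), and mutant 2 lay close below control 2. The promoter window of Cry1 (chr10:85185005-85185304, minus strand) is shown because Cry1 was the only member that rose, and the window holds a canonical E-box.
Cry1: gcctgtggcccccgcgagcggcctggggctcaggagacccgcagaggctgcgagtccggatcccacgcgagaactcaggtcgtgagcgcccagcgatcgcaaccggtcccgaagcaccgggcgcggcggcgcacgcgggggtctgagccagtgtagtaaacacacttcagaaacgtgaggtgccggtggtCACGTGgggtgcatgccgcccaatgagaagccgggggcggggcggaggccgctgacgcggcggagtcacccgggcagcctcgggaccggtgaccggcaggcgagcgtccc
The capitals mark its E-box at position -60. The same letters were found in the window of the first listed start of Per1, but not of its second, and in those of both listed starts of Tef, and not in those of Clock, Per3, Cry2, Dbp, Hlf or Arntl, which says only that these letters are not in those windows. Windows were found for 9 of the 10 members, all but Per2.

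**Figure D2:**
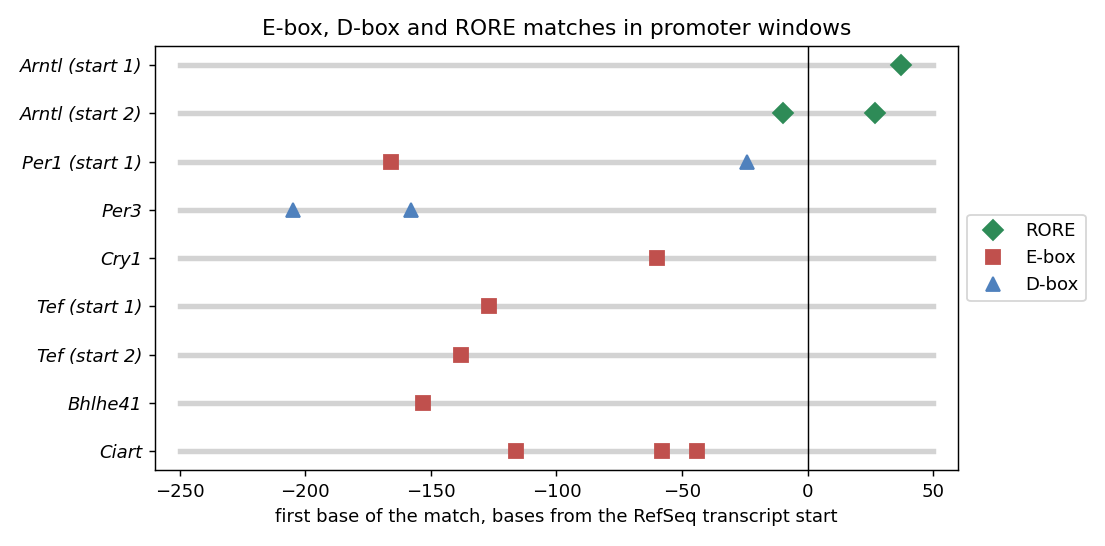
Positions of matches to the E-box (squares), D-box (triangles) and ROR element (diamonds) in promoter windows of core clock and accessory genes, as bases from the RefSeq transcript start (horizontal axis); windows without a match are left out. Per3 had 2 D-box matches, Ciart 3 E-box matches and the second Arntl start 2 ROR element matches.

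With all libraries, the largest fall among the members was that of Dbp, one of the PAR bZIP genes of the output arm, whereas without mutant 1 the low-count Hlf fell more. Dbp (chr7:45705088-45710203, plus strand), which encodes the D-box activator with the strongest daily swing in many tissues, held 24.2, 29.1 and 26.1 CPM in mutants, against 52.8, 58.2 and 56.8 CPM in controls. Its mutant mean of 26.5 ± 2.50 CPM stood against 55.9 ± 2.80 CPM in controls (SD, n = 3 each), and the ranges lay far apart. The log2 fold change of Dbp was -1.08 (adjusted p = 1.04e-05 by edgeR, SE 0.085), larger in size than that of 83.6% of tested genes. Tef (chr15:81802421-81826863, plus strand), a second D-box activator with a shallower rhythm, held 56.9, 63.2 and 60.4 CPM in mutants, against 100.2, 100.3 and 96.1 CPM in controls. It fell with a log2 fold change of -0.72 (adjusted p = 3.39e-05 by edgeR, SE 0.069), with the controls within a few percent of each other. Against a null of a 1.5-fold change, edgeR called 2 members, Dbp and Per3, and Tef had an adjusted p of 0.0720.

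Hlf (chr11:90336536-90390895, minus strand), the third PAR bZIP gene, was barely detected. Its raw counts were 16, 6 and 8 in mutants and 21, 24 and 25 in controls, or 0.618, 0.240 and 0.219 CPM in mutants, against 0.599, 0.712 and 0.807 CPM in controls. Mutant 1 lay among the controls and the other mutants lay below them. Its log2 fold change of -1.0 (SE 0.44) did not pass (adjusted p = 0.0874 by edgeR), and without mutant 1 it was -1.62 (adjusted p = 0.0133). A count of 3, taken as the floor, would be 0.0820 to 0.120 CPM in mutants and 0.0856 to 0.0968 CPM in controls, so a difference at this depth rests on few reads. The floor covers counting error only, and reads amplified by PCR are not independent molecules. The SE comes from edgeR's F statistic, which also takes in the spread between libraries.

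**Figure D3:**
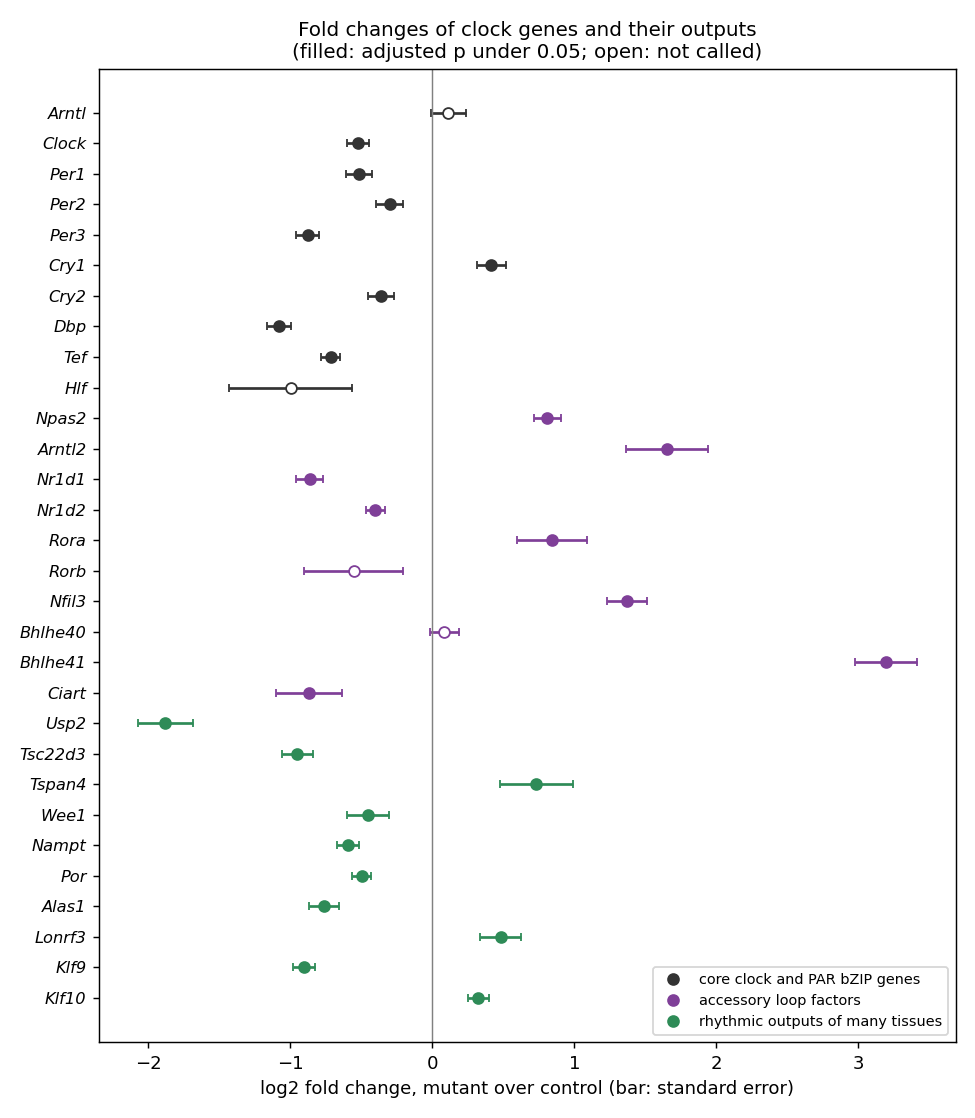
Log2 fold change of mutant over control (horizontal axis) with its standard error for the 10 members (black), 10 accessory loop factors (purple) and 10 rhythmic outputs (green); filled points passed an adjusted p of 0.05. Dbp, Per3, Nr1d1, Usp2 and Klf9 lie left of 0, and Cry1, Npas2, Nfil3 and Bhlhe41 lie right of it.

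The factors of the accessory loops changed on both sides. Of 10 such genes, all tested, 5 rose (Npas2, Arntl2, Rora, Nfil3 and Bhlhe41), 3 fell (Nr1d1, Nr1d2 and Ciart) and 2 did not pass (Rorb and Bhlhe40), beside the 46.3% of all tested genes that were called. Bhlhe41 encodes DEC2, a repressor that competes at E-boxes. It held 5.10, 4.32 and 4.98 CPM in mutants, against 0.571, 0.475 and 0.516 CPM in controls, a rise of 3.19 on the log2 scale (adjusted p = 4.27e-06 by edgeR, SE 0.22). Its paralog Bhlhe40, encoding DEC1, stood at 174 to 229 CPM in mutants, against 186 to 206 CPM in controls (adjusted p = 0.535). Nfil3, the D-box repressor, held 13.6, 12.2 and 16.3 CPM in mutants, against 5.05, 5.79 and 5.49 CPM in controls, a rise of 1.37 on the log2 scale (adjusted p = 4.67e-05 by edgeR, SE 0.14).

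Among the nuclear receptors of the Arntl loop, the REV-ERB genes fell. Nr1d1 held 46.2, 37.9 and 39.8 CPM in mutants, against 73.9, 69.0 and 82.9 CPM in controls, a log2 fold change of -0.87 (adjusted p = 8.52e-05 by edgeR, SE 0.097). Nr1d2 fell less, with a log2 fold change of -0.40 (adjusted p = 9.73e-04). Rora, which encodes an activating receptor, rose with a log2 fold change of 0.84 (adjusted p = 0.0189). Rora was low, at 3.71 to 5.17 CPM in mutants, against 1.85 to 3.35 CPM in controls. The call of Rora was lost without mutant 3 (adjusted p = 0.0709), control 1 (0.0653) or control 3 (0.0696). Ciart, an E-box target that encodes a repressor of ARNTL and CLOCK, fell with a log2 fold change of -0.87 (adjusted p = 0.0126, SE 0.23). Without mutant 1, and likewise without mutant 2, the accessory factors had 5 higher and 3 lower calls. Rorb, at 9 to 28 counts per library, had a log2 fold change of -0.56 and did not pass (adjusted p = 0.221 by edgeR). Thus the REV-ERB genes were lower and Rora, whose call was unstable, was higher, while Arntl itself did not pass the test.

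Among kinases, ubiquitin ligases and partners of the clock proteins the changes were small. Of 20 genes 19 were tested, of which 11 fell, 5 rose and 3 did not pass, with a median absolute log2 fold change of 0.30. Over all tested genes 22.8% were called lower and 23.5% higher, so the 5 that rose are near that share. Fbxl21 was not tested, with 4 to 8 counts per library. The smallest p-values were those of Sirt1, a deacetylase that acts on PER2 and ARNTL, Prkaa2, a catalytic subunit of AMP-activated kinase, which marks CRY1 for decay, Cipc, a CLOCK-interacting repressor, and Ncor1, the corepressor of REV-ERB. Their log2 fold changes were -0.54 (adjusted p = 5.23e-04), -0.49 (adjusted p = 7.70e-04), -0.57 (adjusted p = 0.00117) and -0.48 (adjusted p = 0.00154). Of the kinases that phosphorylate PER, Csnk1d stood at 132 to 137 CPM in mutants, against 132 to 147 CPM in controls (adjusted p = 0.710), and Csnk1e rose with a log2 fold change of 0.32 (adjusted p = 0.0194). The call of Csnk1e was lost without mutant 2 (adjusted p = 0.0518), mutant 3 (0.0824), control 1 (0.0692) or control 2 (0.0650), and with DESeq2 (0.0537). Without mutant 1, and likewise without mutant 2, 11 genes of this list were called lower and 2 higher.

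Genes that follow the clock in many mouse tissues changed mostly downward. Of 10 such outputs 7 fell and 3 rose, with a median log2 fold change of -0.54, beside 0.01 over all tested genes. Of all tested genes 22.8% were called lower and 23.5% higher, and the 3 that rose are near that share. Usp2, a ubiquitin protease, held 7.27, 9.24 and 4.87 CPM in mutants, against 24.5, 28.5 and 24.8 CPM in controls. It had the largest fall of the list, with a log2 fold change of -1.88 (adjusted p = 4.98e-05 by edgeR, SE 0.19). Klf9, a zinc-finger factor, held 45.1, 48.3 and 45.5 CPM in mutants, against 90.8, 78.9 and 90.5 CPM in controls, a log2 fold change of -0.91 (adjusted p = 1.69e-05, SE 0.078). Tsc22d3, which encodes the glucocorticoid-induced GILZ protein, fell with a log2 fold change of -0.95 (adjusted p = 9.49e-05). Nampt, the rate-limiting enzyme of NAD salvage, fell with a log2 fold change of -0.59 (adjusted p = 2.16e-04). Alas1, the first enzyme of heme synthesis, and Por, the reductase that serves cytochromes P450, fell by 0.76 and 0.50 on the log2 scale. Tspan4, Lonrf3 and Klf10 rose, with log2 fold changes of 0.73, 0.48 and 0.32. Tspan4, at 28 to 46 counts per library, lost its call without any library but mutant 3 (adjusted p up to 0.104), and Lonrf3 did so without mutant 1 or 2 or control 1 or 3 (adjusted p up to 0.0999). The cell cycle kinase gene Wee1, lower by a narrow margin (adjusted p = 0.0289), lost its call without mutant 2 (0.0610), mutant 3 (0.0890) or control 1 (0.0987). Without mutant 1 the counts of this list were 7 lower and 1 higher, and without mutant 2 they were 6 lower and 1 higher.

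Ratios of raw counts between genes of the same library do not depend on how libraries are scaled, and since they are not per length they compare libraries, not the levels of the genes. The 5 ratios below were chosen after the values were seen, so they are a description with no test. The Nfil3 to Dbp ratio, of D-box repressor to activator, was 0.563, 0.419 and 0.623 in mutants, against 0.0956, 0.0994 and 0.0966 in controls. That ratio was nearly constant over the controls and 5.43-fold higher in mutants by geometric means. The Npas2 to Clock ratio was 0.383, 0.353 and 0.410 in mutants, against 0.169, 0.122 and 0.167 in controls. The Cry1 to Cry2 ratio was 1.07, 0.928 and 0.924 in mutants, against 0.584, 0.539 and 0.566 in controls, with mutant 1 the highest and all controls close together. The Cry1 to Per3 and Arntl to Dbp ratios were 2.47-fold and 2.31-fold higher in mutants. For none of the 5 ratios did the groups overlap. Except for Arntl to Dbp, both genes of each ratio had already separated the groups, in opposite directions. Separation of those ratios follows from that and adds nothing to it.

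**Figure D4:**
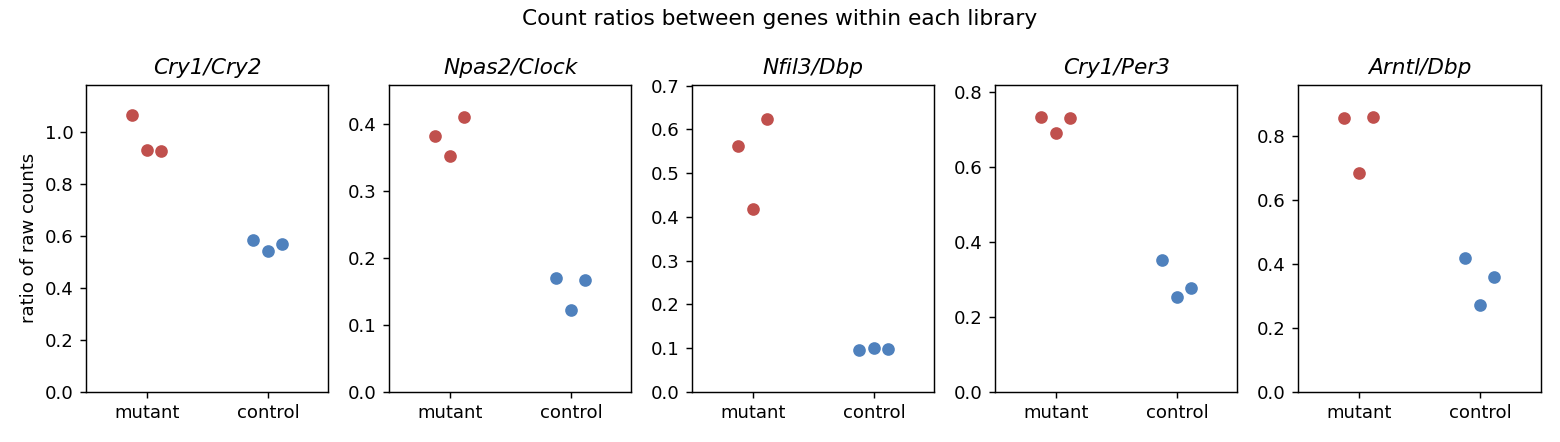
Ratios of raw counts between pairs of genes (vertical axis, from 0) in the 3 mutant libraries (red, left) and the 3 control libraries (blue, right). In each panel all mutants lie above all controls, from 0.419 to 0.623 against 0.0956 to 0.0994 for Nfil3 over Dbp.

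Per kilobase of exon, the order of the members' levels differed between groups. In mutants Per2 was the highest, with a level of 11.5 ± 1.37 CPM per kilobase, above Dbp at 8.85 ± 0.837, Cry1 at 7.98 ± 0.386, Tef at 7.65 ± 0.403 and Clock at 6.72 ± 0.240 (SD, n = 3). In controls Dbp was the highest with a level of 18.7 ± 0.936 CPM per kilobase, above Per2 at 14.1 ± 0.801, Tef at 12.6 ± 0.303, Clock at 9.66 ± 0.821 and Per1 at 8.68 ± 0.855. In mutants the range of Cry1 overlapped those of Dbp and of Tef, while every Dbp value lay above every Tef value, and the ranges of Cry2 and Per3 overlapped. In controls the ranges of Clock and Per1, of Per3 and Cry1, and of Cry1 and Cry2 overlapped. Cry1 stood 3rd in mutants, against 7th in controls, and Per3 stood 8th in mutants, against 6th in controls. Arntl was 9th in both groups, at 2.80 ± 0.175 CPM per kilobase in mutants and 2.59 ± 0.433 in controls, and Hlf was last at 0.0538 ± 0.0337 in mutants and 0.106 ± 0.0155 in controls. Levels per kilobase use the summed exon length of each gene, which can exceed that of its main transcript.

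Within groups most members varied less than the median tested gene, a median not matched for level. The SD of log2 CPM was at or below the median of all tested genes (0.169) for 8 members among the mutants, the exceptions being Per2 at 0.175 and Hlf at 0.798. Among controls, where the median over tested genes was 0.149, 7 members were below it, and Arntl, Hlf and Cry1 were above it at 0.251, 0.213 and 0.173. Tef was the steadiest member in controls, with an SD of 0.0350, lower than that of all but 6.77% of tested genes, and Clock was the steadiest in mutants, with an SD of 0.0510. Among the controls, control 2 had the lowest level of Arntl, Per2, Cry1 and Cry2 and the highest of Clock, Per1, Dbp and Tef. Per3 and Hlf in control 2 lay between the other controls. Of the accessory loop factors, it had the lowest level of Npas2, Nr1d1, Rorb, Bhlhe40 and Bhlhe41. Arntl2, Nr1d2, Rora, Nfil3 and Ciart were highest in it.

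Markers of other cells changed in the same libraries, where 46.3% of all tested genes were called, 22.8% lower and 23.5% higher. Of 13 markers of macrophages and dendritic cells 12 rose and 1 fell (C1qa), and their summed level was 80.4 to 107 CPM in mutants, against 36.9 to 46.5 CPM in controls. Of 12 stromal, endothelial, muscle and glial markers 11 were tested, of which 2 rose and 6 fell. Their sum was 142 to 162 CPM in mutants, against 252 to 293 CPM in controls. Col3a1 (mean 45.3 CPM in mutants, 111 CPM in controls) and Col1a1 (20.1 and 51.0 CPM) differed most in CPM, so this sum leans on them. Of 9 lymphocyte markers 6 were tested and 1 rose (Cd4), with sums of 14.2 to 19.8 CPM in mutants, against 11.4 to 14.2 CPM in controls. No macrophage marker was at 0 in any library. The B cell gene Cd79a was at 0 in mutants 1 and 2 and the glial gene S100b in mutant 2. Among 13 markers of the epithelium itself 7 fell and 1 rose. Their summed level was 21381 to 22913 CPM in mutants, against 34169 to 38025 CPM in controls. Muc2 (mean 6296 CPM in mutants, 14083 CPM in controls) and Car1 (2076 and 5613 CPM) differed most in CPM, so the sum leans on them. Cdh1 rose, and Krt18, Krt19, Cdx1, Cdx2 and Lgals4 did not pass. Of 16 immediate-early genes, which respond to handling and to the stimuli that also act on Per1, 14 were tested, of which 5 rose and 1 fell, with sums of 999 to 1307 CPM in mutants, against 921 to 1011 CPM in controls. Of these genes 42.9% were called, near the share over all tested genes. The part of these cells and responses in the clock gene results was not tested.

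The genes with the profiles most like those of Arntl and Dbp were sought among genes with a mean of at least 5 CPM, by the mean absolute difference of centred log2 CPM over the 6 libraries. Yeats4, Rtn4 and Spg20 were nearest to Arntl, at 0.0417, 0.0425 and 0.0442 log2 units. Mgat4a, A530020G20Rik and Slc34a2 were nearest to Dbp, at 0.0321, 0.0352 and 0.0392 log2 units, each lower in every mutant than in any control. None of these 6 genes is among the members or the lists above.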

How the data were processed

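The submitters' processing notes name Trim Galore 0.6.5, STAR 2.6.1d and the mouse build GRCm38. Per the file headers, the deposited raw counts are fragments per gene from featureCounts 1.6.4 on GENCODE vM25 exons, counted on the strand of read 1, with no option for reads that map to several places or genes. No exon of a member overlapped a gene on its strand, and those of Arntl, Cry2, Dbp and Tef each overlapped 1 gene on the other strand, which stranded counting keeps apart. Counts were analysed with edgeR 4.0.16 in R 4.3.3: filterByExpr (minimum count 10, minimum total 15), TMM scaling, quasi-likelihood F test, 2-sided, genotype as the only term, Benjamini-Hochberg over all 18539 tested genes. CPM are TMM-scaled. Alternatives used DESeq2 1.42.0 and limma 3.58.1, other scalings and filters, a replicate block and left-out libraries. The fits were tested on simulated data. Promoter sequences come from RefSeq (GRCm38.p6), searched on both strands. Pairs of libraries of a group differed by a chi-square of 14.0 to 90.8 per gene, more than counting noise gives, so none was the same library deposited again.

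The members and lists were chosen with earlier results of these data known. The rule for named genes took all members, Mettl14, the 4 genes of smallest p from each of 3 lists of clock genes, and the 3 nearest profiles to Arntl and to Dbp. Other named genes of the lists, and the ratios, were chosen after their values were seen. Some genes of these lists are not reported here.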

Additional observations from a re-analysis of the deposited data

How the results depend on the processing

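The direction of the 8 called members held under all 17 alternatives, and Dbp and Per3 kept their calls in each. The count of members called lower ran from 6 to 8, and of those called higher was 1, when a single library was left out, and all called genes ran from 7057 to 8571. Against a 1.5-fold change edgeR called 2747 genes, 2 members lower and 0 higher (3 and 0 at an unadjusted p under 0.05), whereas DESeq2 and limma-voom, which test against no change, each called 7 lower and 1 higher. With mutant 3 alone against the controls, where the lone library is assumed to vary like the others, 0 members were called higher, also before adjustment. Signs turned for 3 genes that were not called: Arntl (-0.0255 without control 2, and up to 0.205 without control 1), Bhlhe40 (-0.0019 without mutant 3, 0.18 without mutant 1 and 0.22 with mutant 3 alone) and Csnk1d (0.036 with library totals alone). Scaling by library totals alone moved the share of higher calls to 59.0%, against 50.7% with TMM. The replicate numbers gave no sign of pairing the samples: deviations of mutants and controls of the same number correlated at -0.11, -0.055 and -0.13. With 3 libraries per group, and mutants 1 and 2 apart on sex-linked genes, this does not settle whether the numbers pair them. With the replicate block 7403 genes passed, with 6 members lower and 1 higher, and the calls of Per2 (adjusted p = 0.0546) and Tspan4 (0.0937) were lost in edgeR. Hlf, with at most 25 counts, is the member that depth limits.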
